A study of Arabidopsis thaliana with 30 samples.

Results

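Transcript levels of 10 Arabidopsis thaliana genes of sulfate transport and the sulfur deficiency response were followed in roots given root meristem growth factor 1 (RGF1) peptide, or given rapamycin in lines with engineered receptors for RGF peptides. The genes were picked by locus: the sulfate transporters SULTR1;1 (AT4G08620), SULTR1;2 (AT1G78000), SULTR2;1 (AT5G10180), SULTR2;2 (AT1G77990), SULTR4;1 (AT5G13550) and SULTR4;2 (AT3G12520), the deficiency-response genes LSU1 (AT3G49580), LSU2 (AT5G24660) and SDI1 (AT5G48850), and the reductase gene APR3 (AT4G21990). All 10 were present among the 32753 genes of the deposited abundance table. They were put forward with values of these same libraries known, so their levels and differences are described without a test.

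The 30 libraries formed 10 groups of 3, all from roots of Col-0 background seedlings at 7 days after germination, treated for 4 h in half-strength Murashige and Skoog (1/2 MS) solution. The RGF1 set (6 libraries) held wild type (WT) given 100 nM RGF1 peptide and WT given mock. The RGI1 set (12 libraries) held the line RiD-RGI1/BAK1 given 1 µM rapamycin, the same line given mock, WT given 1 µM rapamycin and WT given mock. The RGI5 set (12 libraries) held the line RiD-RGI5/BAK1 given 100 nM rapamycin, the same line given mock, WT given 100 nM rapamycin and WT given mock. They are referred to below as the RGI1 line and the RGI5 line. The sample titles name the mock DMSO in the RGI1 and RGI5 sets, and only mock in the RGF1 set. It is called mock throughout. RGI1 and RGI5 are receptor kinases for RGF peptides and BAK1 is a co-receptor kinase, and rapamycin is a small molecule used in engineered receptors to bring 2 proteins together. The labels give neither the promoter of the engineered receptors nor the number of independent lines, and do not say whether the 3 libraries of a group came from separate cultures, so the spread between them may be technical.

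Roots take up sulfate from soil through high-affinity transporters in the outer cell layers, of which SULTR1;2 carries most of the flow in sulfur-replete plants and SULTR1;1 is strongly induced under sulfur limitation. SULTR2;1 and SULTR2;2 are low-affinity transporters of vascular tissue, and SULTR4;1 and SULTR4;2 release sulfate from the vacuole. Sulfate is activated to adenosine 5′-phosphosulfate, which is either reduced toward cysteine by the APR reductases or phosphorylated by APK kinases for sulfation reactions. LSU1, LSU2 and SDI1 are induced by sulfur starvation, SDI1 acting as a repressor of glucosinolate synthesis, and the transcription factor SLIM1 is needed for much of the starvation response.

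The tissue and genotype labels were checked first. The 6 root markers summed to between 9976 and 12800 TPM (transcript abundance scaled to transcript length and to the same total in every library) in the 30 libraries, almost all of it PYK10, a root beta-glucosidase. The 7 green shoot markers summed to between 12.9 and 73.7 TPM, and STM, a shoot meristem gene, was between 0 and 0.0974 TPM. RGI1 averaged 204.2 TPM in the RGI1 line under mock, against 31.7 TPM in its WT, with native and engineered copies not separated. Each column summed to 1000000 TPM, a unit that keeps no sequencing depth, so the depth is unknown and counting error cannot be given.

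SULTR1;2 was by far the most abundant of the 10 genes, with a lowest, median and highest library of 200.6, 521.6 and 714.4 TPM. Since TPM are scaled to transcript length, levels can be compared between genes. SULTR4;1 (median 31.1 TPM) and APR3 (median 28.3 TPM) followed, then SULTR2;1 (15.9 TPM), SULTR2;2 (11.8 TPM) and SULTR1;1 (9.84 TPM). The medians of SULTR4;2, LSU2, LSU1 and SDI1 were 5.32, 4.37, 3.07 and 1.73 TPM. The 3 deficiency-response genes were thus the least abundant, and on the log2(TPM + 1) scale used below the pseudocount of 1 understates their differences.

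The sets differed in their base level of SULTR1;2. WT under mock had 366, 377 and 372 TPM in the RGI1 set, 618, 610.0 and 562 TPM in the RGI5 set and 611, 621 and 612 TPM in the RGF1 set. All 12 libraries of the RGI1 set, WT included, lay at or below 402 TPM, while the libraries of the other sets reached down to 384 TPM in only 1 case and otherwise lay at 461 TPM or above. The set, its mock and whatever else differed between the experiments cannot be told apart. Treatments and lines were therefore compared within a set.

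**Figure D1:**
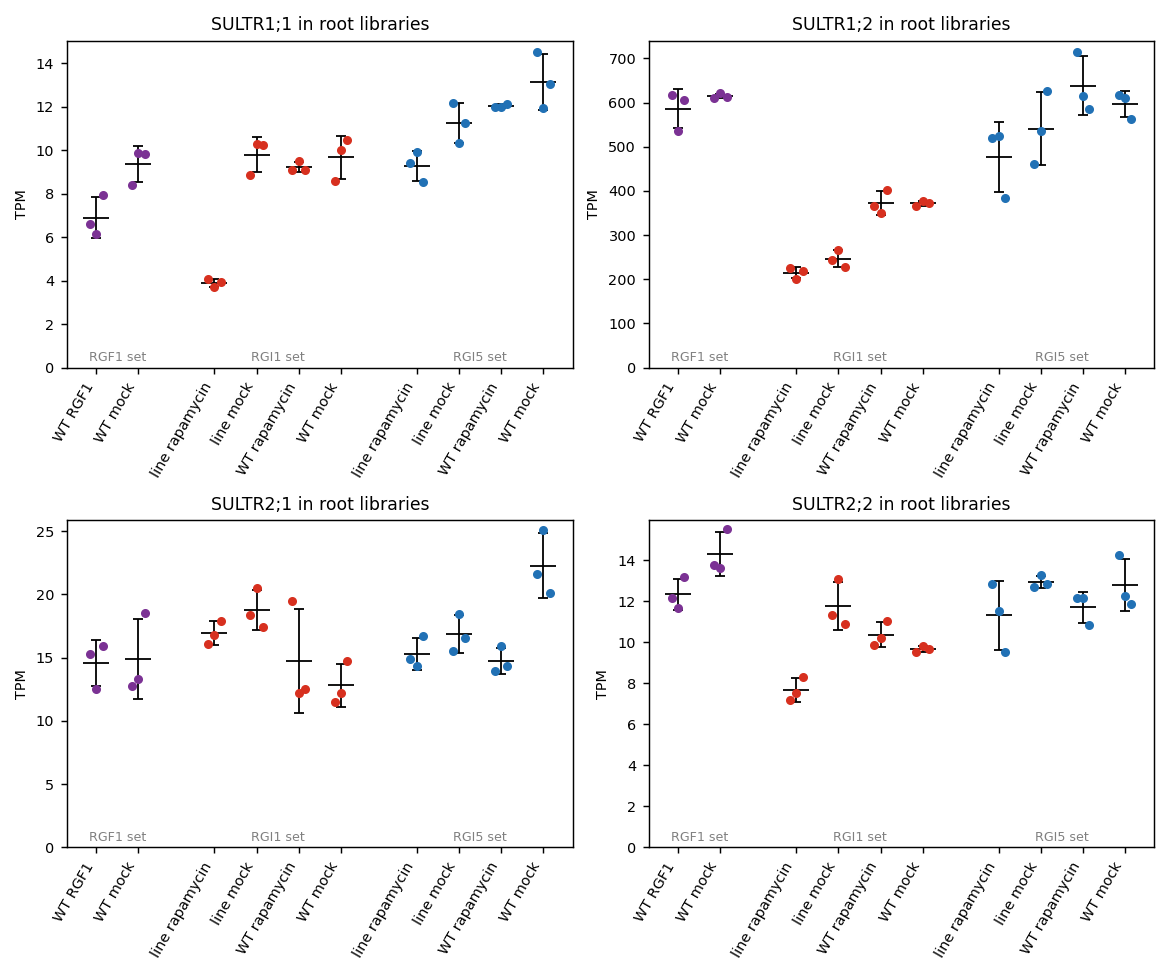
TPM of the 2 uptake and 2 vascular transporters in each library (points), with the group mean and SD (bars, n = 3), for the RGF1, RGI1 and RGI5 sets. SULTR1;1 in the rapamycin-treated RGI1 line lies at 3.70 to 4.08 TPM, below every other library, and SULTR1;2 is lower in the RGI1 line than in its WT with and without rapamycin.

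The largest response of any of the 10 genes to a treatment was that of SULTR1;1 in the RGI1 line. It had 4.08, 3.699 and 3.94 TPM in the line with 1 µM rapamycin, against 8.87, 10.3 and 10.2 TPM in the line with mock. WT of the same set had 9.103, 9.504 and 9.07 TPM with rapamycin and 8.57, 10.01 and 10.5 TPM with mock. Rapamycin-treated and mock-treated roots of the line were widely separated, while the WT groups overlapped each other and the mock-treated line. The difference of mean log2(TPM + 1), rapamycin minus mock, was -1.14 ± 0.080 (SE) in the line and -0.059 ± 0.080 in WT, and the response of the line minus that of WT was -1.08 ± 0.11. Over all 10 groups the rapamycin-treated RGI1 line was lowest (mean 3.904 TPM) and stood apart from the next group up, RGF1-treated WT (mean 6.88 TPM), which in turn stood apart from the third. The highest group was WT mock of the RGI5 set (mean 13.1 TPM), which overlapped the next group.

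SULTR1;1 is the transporter in whose promoter a sulfur-responsive element was first defined, a short stretch with the core GAGAC that acts from well upstream of the gene. The stretch is shown because this gene gave the largest response. A match to GGAGACA, which contains that core, was located in the TAIR10.1 genome, 2606 bases before the annotated start of the gene and 2773 bases before its coding start, at chr4:5497695-5497724 on the plus strand, in a segment that overlaps no annotated gene. The matched bases are in capitals.
SULTR1;1: agaaaccatgaaGGAGACAaagccttaagg
The abundance table names no genome build, and the segment was taken from the TAIR10.1 annotation by locus. GGAGACA on either strand occurs in the 3000 bases before the start of 29.3% of 27444 protein-coding genes and of 5 of the 10 genes here. The match is given as a description, and whether it is a working site was not tested.

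SULTR2;2, a vascular low-affinity transporter, was also lower with rapamycin in the RGI1 line. It had 7.18, 7.55 and 8.305 TPM in the line with rapamycin, against 11.3, 13.1 and 10.9 TPM in the line with mock. WT had 9.88, 10.2 and 11.04 TPM with rapamycin and 9.54, 9.81 and 9.68 TPM with mock. In the line every rapamycin library was below every mock library, while in WT every rapamycin library lay slightly above every mock library. The differences of mean log2(TPM + 1) were -0.56 ± 0.075 in the line and 0.092 ± 0.075 in WT, and the response of the line minus that of WT was -0.65 ± 0.11. It lies next to SULTR1;2 on chromosome 1, on the opposite strand. An annotated antisense gene, AT1G77992, overlaps it and had at most 0.816 TPM in any library. SULTR4;2 and APR3 also overlap annotated neighbours (AT3G12510 and AT4G21980 among them), and whether the counting used the strand is not given in the sources used here.

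SULTR1;2, the main uptake transporter, was lower in the RGI1 line than in WT under both treatments. It had 226, 201 and 219 TPM in the RGI1 line with rapamycin, against 244, 267 and 228 TPM in the line with mock. In WT it had 366, 349 and 402 TPM with rapamycin and 366, 377 and 372 TPM with mock. All rapamycin-treated libraries of the line lay just below the mock-treated ones, and all 6 libraries of the line lay below all 6 of WT. The difference of mean log2(TPM + 1) between rapamycin and mock was -0.19 ± 0.068 in the line and 0.002 ± 0.068 in WT.

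Among the starvation markers, SDI1 had 2.14, 1.67 and 1.505 TPM in the RGI1 line with rapamycin, against 3.74, 3.46 and 3.12 TPM in the line with mock, without overlap. WT had 1.63, 0.753 and 1.504 TPM with rapamycin and 1.27, 2.06 and 0.786 TPM with mock, so rapamycin-treated roots of the line overlapped those of WT. The difference in the line was -0.68 ± 0.19 on the log2(TPM + 1) scale, against -0.035 ± 0.19 in WT. LSU2, one of a family of small proteins induced by low sulfur, went the other way, with 7.27, 6.67 and 8.18 TPM in the line with rapamycin, against 4.67, 6.18 and 6.66 TPM in the line with mock. That difference was 0.30 ± 0.14, and the lowest rapamycin library was only just above the highest mock library. LSU1 had 5.76, 4.704 and 5.37 TPM in the line with rapamycin, against 3.68, 5.18 and 3.88 TPM in the line with mock, and the groups overlapped (0.27 ± 0.19). The deficiency markers therefore did not share a direction in this contrast.

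APR3, one of the reductases that commit sulfate to cysteine synthesis, had 24.2, 24.3 and 22.3 TPM in the RGI1 line with rapamycin, against 26.3, 27.2 and 27.04 TPM with mock, a difference of -0.18 ± 0.088 without overlap. For SULTR2;1 and the vacuolar exporters SULTR4;1 and SULTR4;2 the rapamycin and mock groups of the line overlapped, with differences of -0.14 ± 0.14, 0.047 ± 0.072 and -0.025 ± 0.14. In all, 5 of the 10 genes lay wholly below and 1 wholly above mock in the line. The same held for 6.17% (below) and 13.7% (above) of all 19634 genes tested. limma called 796 genes (4.05%) in this contrast. The median difference of the 10 genes was -0.16, against 0.029 over all genes tested. Since the genes were chosen with these values known, the counts are given as a description only. In WT the same dose gave no gene wholly below and 1 wholly above mock, against 6.81% and 4.52% of all genes. limma called 0 genes (0%) there, with 1290 at an unadjusted p under 0.05.

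The markers were compared in the same contrast. Of the 6 root markers, EXPA7, an expansin gene of root hairs, was lower with rapamycin in the RGI1 line, with a mean of 63.5 TPM (62.2 to 64.9 TPM) with rapamycin, against 75.1 TPM (73.9 to 77.3 TPM) with mock (-0.24, limma adjusted p = 0.0374). COBL9, also a root hair gene, had a mean of 10.2 TPM (9.309 to 10.9 TPM) with rapamycin, against 12.2 TPM (11.7 to 12.7 TPM) with mock, and was not called (-0.24, adjusted p = 0.189). None of the other 4 was called, nor any of the 4 tested green shoot markers. The summed root markers overlapped, at 11060 to 12310 TPM with rapamycin and 11270 to 12800 TPM with mock. The part of the root hair markers in the levels of the 10 genes was not tested.

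**Figure D2:**
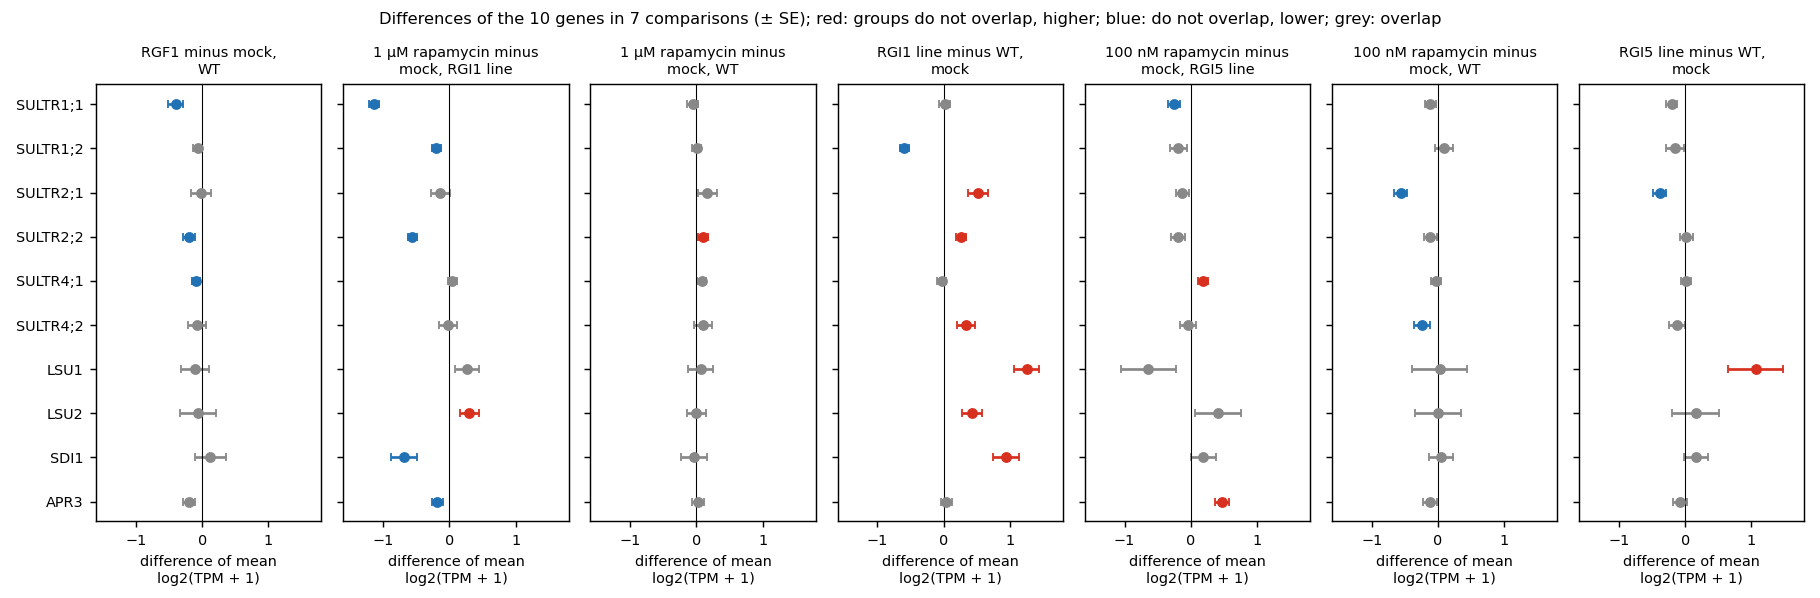
Difference of mean log2(TPM + 1) between the 2 groups named above each panel for the 10 genes, with SE from the limma fit of the set (n = 3 per group). Red and blue mark genes whose groups do not overlap, higher and lower in the first-named group, and grey marks overlap. With rapamycin against mock in the RGI1 line, SULTR1;1, SDI1 and SULTR2;2 lie furthest on the low side. In that line under mock, against WT, LSU1 and SDI1 lie furthest on the high side.

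Even without rapamycin the RGI1 line differed from WT, in the opposite way for the main uptake gene and for the starvation genes. SULTR1;2 had 246 ± 19.7 TPM in the line under mock (SD, n = 3), against 372 ± 5.92 TPM in WT under mock (SD, n = 3), from the library values given above. The groups did not overlap, and the difference was -0.59 ± 0.068 on the log2(TPM + 1) scale. Both annotated transcript models were measured, AT1G78000.1 holding 88.1% and AT1G78000.2 11.8% of the TPM of the gene over the 30 libraries.

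LSU1 had 3.68, 5.18 and 3.88 TPM in the RGI1 line under mock, against 1.76, 1.43 and 0.552 TPM in WT under mock. Every library of the line was well above every library of WT, and the difference of mean log2(TPM + 1) was 1.25 ± 0.19. SDI1 had 3.74, 3.46 and 3.12 TPM in the line, against 1.27, 2.06 and 0.786 TPM in WT, again without overlap, and the difference was 0.94 ± 0.19. LSU2 had 4.67, 6.18 and 6.66 TPM in the line, against 4.597, 3.92 and 3.66 TPM in WT, a difference of 0.43 ± 0.14 with groups that nearly touched. All 3 starvation genes were thus higher in every library of the line than in any of WT.

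Among the members, SDI1 carried the core GAGAC within the 250 bases before its annotated start, and it was the 1 gene of the 10 that did. On either strand that core occurs in 25.8% of 27444 promoters of this length, and in 97.9% of windows of 3000 bases, where 9 of the 10 genes held it. In SDI1 it appears as GTCTC on the coding strand in 3 stretches that resemble each other, shown here because of this repetition. In them GTCTC begins 457, 288 and 23 bases before the annotated start. The stretches are at chr5:19808293-19808322, chr5:19808124-19808153 and chr5:19807859-19807888 of TAIR10.1. They are printed on the minus strand, on which the gene is transcribed, with GTCTC in capitals. Copies 1 and 2 lie beyond the 250 bases used above, and the share of promoters with 3 such copies was not counted.
SDI1 copy 1: acgtggtaagaaGTCTCcaaatgacatggc
SDI1 copy 2: ttgtggtaagaaGTCTCcaagtgacgtagc
SDI1 copy 3: acgtggtaagaaGTCTCcaagtgacgtggc
Of the 30 bases, 25 were identical between copies 1 and 2, 28 between copies 1 and 3, and 27 between copies 2 and 3. Searches on both strands of the same 250 bases for ATGTACCT and ATGTATCT, stretches related to binding sites of the SLIM1 family, found none in the 10 genes. These occur in 0.423% and 1.23% of all such promoters. In 3000 bases each was found in SULTR4;2 alone of the 10 genes, against 8.46% and 16.1% of all genes.

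The vascular transporters were also higher in the RGI1 line under mock. SULTR2;1 had 18.3, 20.5 and 17.4 TPM in the line, against 11.5, 12.2 and 14.7 TPM in WT, a difference of 0.52 ± 0.14. SULTR2;2 had the mock values already given, which did not overlap either (0.26 ± 0.075). SULTR4;2, a vacuolar exporter, had 5.13, 6.27 and 6.27 TPM in the line, against 4.09, 4.86 and 4.45 TPM in WT (0.33 ± 0.14). The remaining transporters and APR3 did not separate the genotypes, with differences of 0.017 ± 0.080 for SULTR1;1, -0.030 ± 0.072 for SULTR4;1 and 0.041 ± 0.088 for APR3. SULTR1;1, lower with rapamycin in the line, thus had nearly the same level in the line as in WT under mock.

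In this comparison 6 of the 10 genes lay wholly above WT and 1 wholly below, against 5.12% (above) and 34.2% (below) of all genes. limma called 3239 of 19634 genes (16.5%), 2% higher and 14.5% lower. The median difference of the 10 genes was 0.29, against -0.095 over all genes. After median-ratio scaling, which brought the median of all genes to -0.002, the difference was -0.49 for SULTR1;2, 1.32 for LSU1 and 1.01 for SDI1.

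Other features of the libraries moved with this genotype contrast. The summed green shoot markers averaged 43.9 TPM (39.8 to 50.0 TPM) in the RGI1 line under mock, against 21.5 TPM (19.1 to 23.2 TPM) in WT, and 46.7 TPM (36.8 to 59.0 TPM) in the line with rapamycin. Of the 7 markers 4 could be tested, and RBCS1A (1.04, limma adjusted p = 0.000147) and LHCB1.3 (1.23, adjusted p = 0.00418) were higher in the line, while LHCB2.1 (-0.087, adjusted p = 0.805) and BP (-0.13, adjusted p = 0.542) were not called. RBCS3B and CAB2 had at most 1.35 and 1.32 TPM in any library. Of the 6 root markers, PIN2, an auxin carrier, was lower in the line (-0.36, adjusted p = 0.0049). The noncoding RNA AT1G15405 took 10.9% of all TPM in the line under mock, against 7.00% in WT. The part of these in the levels of the 10 genes was not tested.

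**Figure D3:**
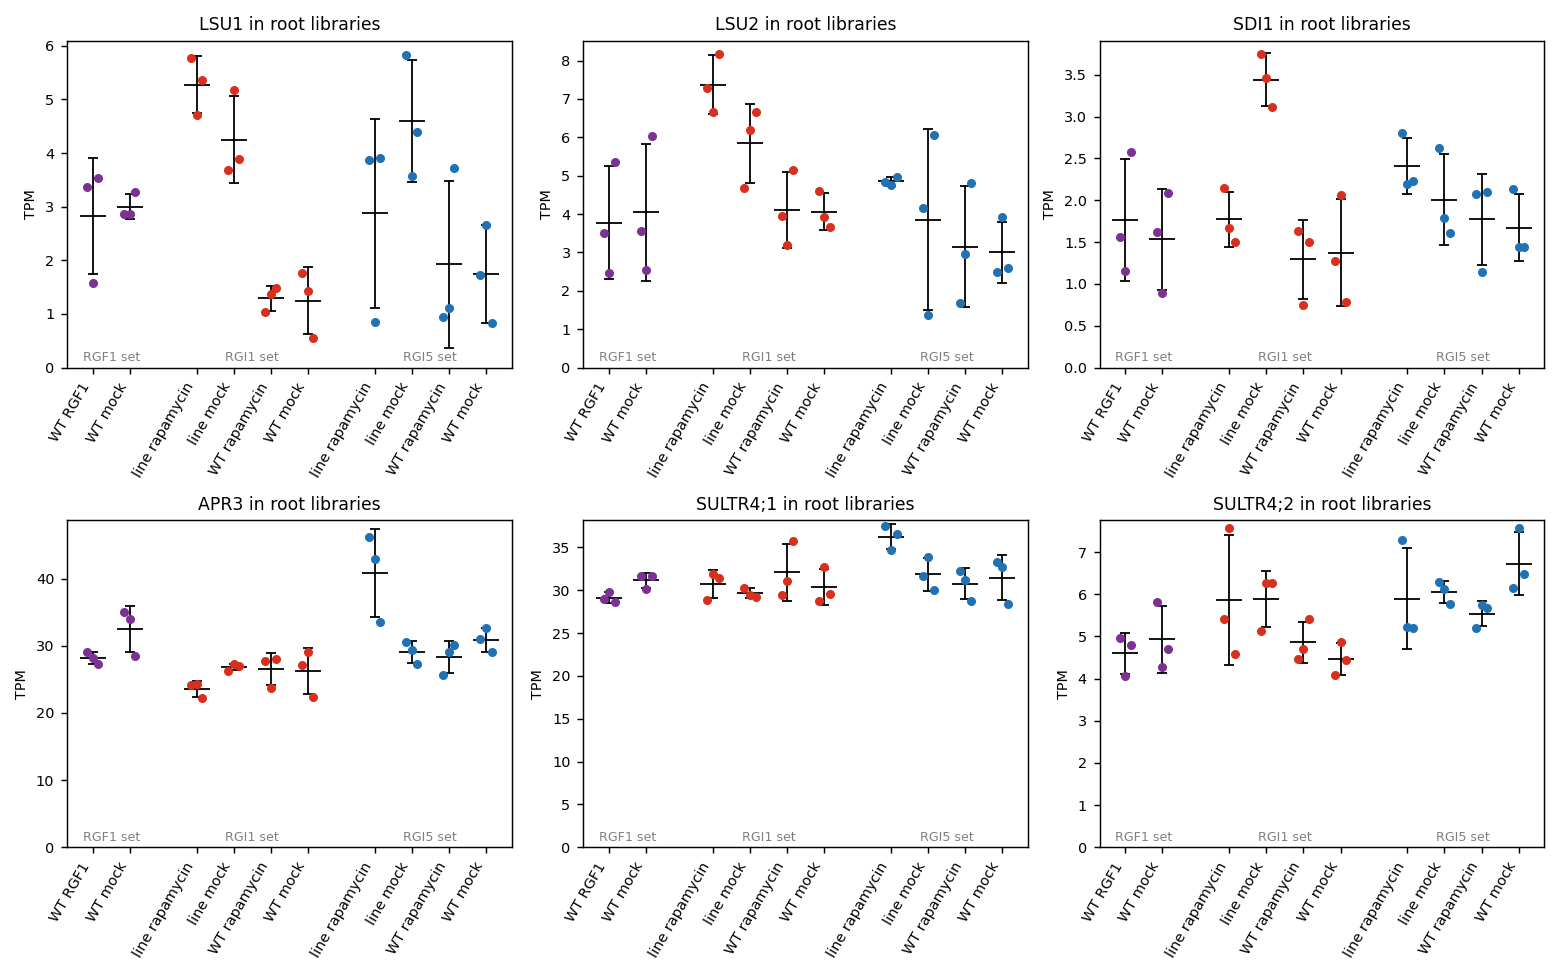
TPM of LSU1, LSU2, SDI1, APR3, SULTR4;1 and SULTR4;2 in each library (points), with the group mean and SD (bars, n = 3), for the RGF1, RGI1 and RGI5 sets. LSU1 is higher in every mock library of the RGI1 and RGI5 lines than in any WT mock library of the same set, and SDI1 is highest in the RGI1 line under mock.

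RGF1 peptide in WT went with a lower level of 3 transporters. SULTR1;1 had 6.595, 6.12 and 7.93 TPM with 100 nM RGF1, against 8.39, 9.86 and 9.81 TPM with mock. The highest RGF1 library was below the lowest mock library, and the difference of mean log2(TPM + 1) was -0.40 ± 0.12. SULTR2;2 had 12.2, 11.7 and 13.2 TPM with RGF1, against 13.8, 13.6 and 15.5 TPM with mock (-0.20 ± 0.088), and SULTR4;1 had 28.9, 29.8 and 28.6 TPM with RGF1, against 31.7, 30.1 and 31.6 TPM with mock (-0.093 ± 0.064). Both were also without overlap, though by a small margin. SULTR1;2 overlapped, with 616, 536 and 606 TPM in RGF1-treated and 611, 621 and 612 TPM in mock-treated roots (-0.070 ± 0.067).

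The remaining members overlapped between RGF1 and mock. Their differences were -0.019 ± 0.14 for SULTR2;1, -0.077 ± 0.13 for SULTR4;2, -0.10 ± 0.21 for LSU1, -0.063 ± 0.28 for LSU2, 0.12 ± 0.24 for SDI1 and -0.20 ± 0.087 for APR3. The 3 genes wholly below mock compare with 12.3% of all 19274 genes tested, and none lay wholly above, against 3.33%. limma called 27 genes (0.14%). The median difference of the 10 genes was -0.085, against -0.049 over all genes, of which 65.8% were below 0. After median-ratio scaling the median of all genes was -0.001. The differences were then -0.35 for SULTR1;1, -0.15 for SULTR2;2 and -0.041 for SULTR4;1, which moved by more than 1 SD. The noncoding RNA AT1G15405 averaged 8.52% of all TPM with RGF1, against 5.24% with mock, and the groups overlapped. Its part in the levels of the 10 genes was not tested. SULTR1;1 and SULTR2;2 were wholly below mock both with RGF1 in WT and with rapamycin in the RGI1 line. Of all genes, 12.3% were so in the first contrast and 6.17% in the second, and the share in both was not computed. SULTR1;1 and SULTR2;2 were chosen with these values known, so this is a description only. Whether the sizes of these responses differ was not tested, as they come from separate sets.

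In the RGI5 line APR3 was the gene most apart. APR3 had 46.2, 42.9 and 33.5 TPM in the RGI5 line with 100 nM rapamycin, against 30.6, 29.4 and 27.3 TPM in the line with mock. WT had 25.7, 29.1 and 30.1 TPM with rapamycin and 31.01, 32.6 and 29.1 TPM with mock. All rapamycin libraries of the line were above all other libraries of the set, 1 of them by less than the others. The difference was 0.47 ± 0.11 in the line and -0.12 ± 0.11 in WT, and the line minus WT response was 0.59 ± 0.15. SULTR4;1 had 37.5, 34.7 and 36.6 TPM in the line with rapamycin, against 31.6, 33.9 and 30.1 TPM with mock, also without overlap (0.18 ± 0.076). Of all genes, 15.3% lay wholly above mock in this contrast. The noncoding RNA AT1G15405 took 5.85 to 6.59% of all TPM in the line with rapamycin, against 8.74 to 9.91% with mock, and its part in the levels of the 10 genes was not tested. SULTR4;1 was otherwise the steadiest of the 10 genes, its highest group mean being 1.24 times its lowest.

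SULTR1;1 had 9.402, 9.91 and 8.55 TPM in the RGI5 line with rapamycin, against 12.2, 10.3 and 11.2 TPM in the line with mock, again lower without overlap (-0.25 ± 0.089). WT of this set had 11.96, 11.99 and 12.1 TPM with rapamycin and 14.5, 11.9 and 13.02 TPM with mock (-0.11 ± 0.089). These groups overlapped only through the mock library at 11.9 TPM. The response of the RGI5 line minus that of WT was -0.137 ± 0.125, a difference close to its SE. SULTR1;1 was thus lower than its own mock in 3 treatments (rapamycin in the RGI1 line, rapamycin in the RGI5 line and RGF1 in WT), each without overlap, and overlapped mock in WT at both rapamycin doses. The doses of rapamycin differed between the lines, so the sizes are given side by side and not compared: -1.14 ± 0.080 in the RGI1 line at 1 µM, -0.25 ± 0.089 in the RGI5 line at 100 nM and -0.40 ± 0.12 for RGF1. Among the 10 genes no other was both without overlap and in the same direction in all 3. Of all genes, 6.17%, 3.14% and 12.3% lay wholly below mock in these contrasts, in the same order. The share in all 3 at once was not computed.

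The other genes overlapped between rapamycin and mock in the RGI5 line. LSU1 was the most scattered, with 3.86, 0.845 and 3.91 TPM with rapamycin and 5.82, 3.57 and 4.39 TPM with mock (-0.64 ± 0.42), a single library being far below the rest. LSU2 had 4.84, 4.74 and 4.96 TPM with rapamycin and 4.14, 1.36 and 6.06 TPM with mock (0.41 ± 0.35). The differences were -0.19 ± 0.13 for SULTR1;2, -0.13 ± 0.098 for SULTR2;1, -0.19 ± 0.10 for SULTR2;2, -0.046 ± 0.12 for SULTR4;2 and 0.19 ± 0.19 for SDI1. The 2 genes wholly above and 1 wholly below mock compare with 15.3% and 3.14% of all 19652 genes tested. The median difference of the 10 genes was -0.088, against 0.064 over all genes, of which 31% were below 0. After median-ratio scaling the differences were 0.397 for APR3, 0.115 for SULTR4;1 and -0.314 for SULTR1;1. limma called 0 genes (0%) in this contrast, with 2174 at an unadjusted p under 0.05. It also called 0 in the difference between the responses of the RGI5 line and WT, with 2130 at an unadjusted p under 0.05.

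In WT given 100 nM rapamycin, SULTR2;1 had 13.9, 15.9 and 14.4 TPM, against 21.6, 25.1 and 20.1 TPM with mock. The groups were well apart (-0.56 ± 0.098). In the RGI5 line the same gene had 14.9, 14.3 and 16.7 TPM with rapamycin and 15.5, 18.5 and 16.6 TPM with mock, so it was WT mock that stood above the other 3 groups. In the RGI1 set, WT at the higher dose of 1 µM had 19.5, 12.2 and 12.52 TPM with rapamycin and 11.5, 12.2 and 14.7 TPM with mock, with overlap and a positive difference (0.16 ± 0.14), resting on 1 high library. SULTR4;2 had 5.21, 5.74 and 5.67 TPM in WT with 100 nM rapamycin, against 6.14, 7.56 and 6.48 TPM with mock (-0.24 ± 0.12), without overlap. These 2 genes wholly below mock compare with 6.75% of all genes, and none lay wholly above, against 5.31%. limma called 1 gene (0.00509%).

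Under mock, LSU1 was again higher in the line than in WT. It had 5.82, 3.57 and 4.39 TPM in the RGI5 line, against 1.73, 2.66 and 0.834 TPM in WT of that set (1.07 ± 0.42). In both lines every mock library had more LSU1 than any mock library of WT of the same set. The difference between the lines was not tested. SULTR2;1 had 15.5, 18.5 and 16.6 TPM in the RGI5 line, against 21.6, 25.1 and 20.1 TPM in WT (-0.38 ± 0.098), the opposite direction to the RGI1 line. SULTR1;2 overlapped, with 461, 536 and 626 TPM in the line and 618, 610.0 and 562 TPM in WT (-0.15 ± 0.13). SDI1 overlapped as well (0.17 ± 0.19), with 2.63, 1.78 and 1.61 TPM in the line and 2.13, 1.44 and 1.44 TPM in WT. The 1 gene wholly above and 1 wholly below compare with 5.19% and 15.4% of all genes, and limma called 86 (0.438%). The summed green shoot markers averaged 51.2 TPM (41.7 to 67.5 TPM) in this line, against 40.3 TPM (31.0 to 46.9 TPM) in WT, and their part in the level of LSU1 was not tested.

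Across the 10 groups, LSU1 had the largest ratio of highest to lowest group mean (4.23 times), followed by SULTR1;1 (3.37 times), SULTR1;2 (2.97 times), SDI1 (2.66 times) and LSU2 (2.45 times). By the SD of log2(TPM + 1) over the group means, SULTR1;2 (0.56) came before LSU1 (0.54). In the order of group means of SULTR1;2, the rapamycin-treated and then the mock-treated RGI1 line were lowest, each apart from its neighbour, and the 8 other groups formed a run in which neighbours overlapped. For SDI1 the RGI1 line under mock was highest and apart from the next group, and all other neighbours overlapped. For LSU2 the rapamycin-treated RGI1 line was highest and apart from the next. For LSU1 the 3 highest groups (the RGI1 line with rapamycin, the RGI5 line under mock and the RGI1 line under mock, means 5.28, 4.59 and 4.25 TPM) came before a gap to the fourth, RGF1-set WT under mock, although some single libraries of lower groups reached into their range. For SULTR2;1, both vacuolar exporters and APR3 every neighbouring pair of groups overlapped.

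The genes whose profile over the 30 libraries was nearest to 3 of the members were looked up, likeness being the root mean square (RMS) difference of log2(TPM + 1) after each gene was centred on its own mean, among 19287 genes with a mean of at least 1 TPM. SULTR1;2 varied around its mean by an RMS of 0.55. Its nearest gene, PHT1;1 (AT5G43350), a high-affinity phosphate transporter of the root, differed from it by 0.13. PHT1;1 had a group mean of 258 TPM in the rapamycin-treated RGI1 line and 776 TPM in WT mock of the RGF1 set, and PHT1 genes have close paralogs among which reads can be split. Next came AT2G44380 (RMS 0.14), WRKY11 (0.15), a transcription factor, and AT5G06270 (0.16). All 4 were lowest in the RGI1 line, AT5G06270 with mock and the others with rapamycin. Since they were picked for likeness to SULTR1;2, this is no separate result.

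SULTR1;1 varied by an RMS of 0.42, and its nearest genes, AT5G45490 (0.24), GLTP2 (0.24), AT3G20380 (0.25) and AT1G60110 (0.25), were less close in proportion. All 4 had their lowest group mean in the rapamycin-treated RGI1 line, at 52.6, 2.53, 20.7 and 1.28 TPM. They were picked for likeness to SULTR1;1 over the same libraries, so the shared low point is no separate result. LSU1 varied by an RMS of 0.63 and its nearest genes were no closer than 0.42. These were GAPB and LHCB3, both photosynthesis genes (0.42 and 0.43), CYP710A2, a sterol desaturase gene (0.43), and AT3G26450 (0.43). GAPB had its highest group mean in the RGI1 line under mock (5.25 TPM) and its lowest in rapamycin-treated WT of the same set (2.26 TPM). All libraries share the sets, so likeness here includes differences between sets.

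**Figure D4:**
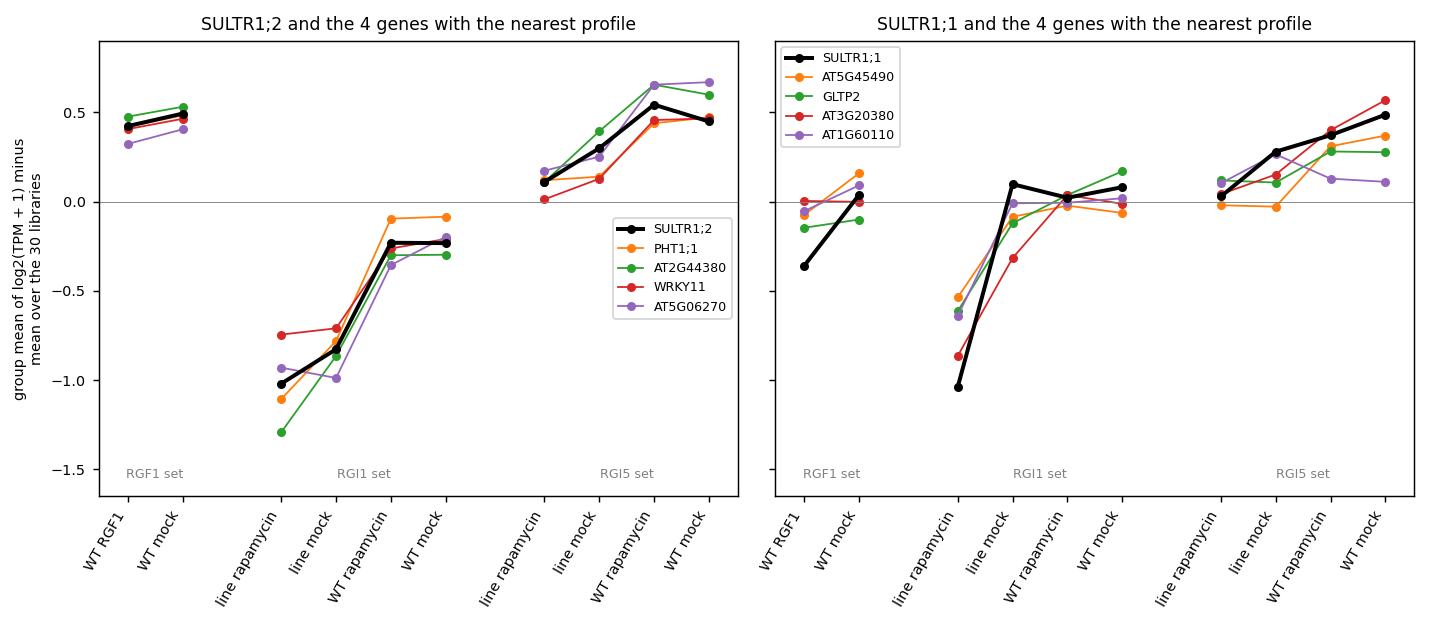
Group means of log2(TPM + 1) minus the mean of each gene over the 30 libraries, for SULTR1;2 (left) and SULTR1;1 (right) in black and the 4 genes nearest to each in colour, with groups of a set joined by lines. The phosphate transporter on the left stays close in all 3 sets, and the genes on the right share the low point in the rapamycin-treated RGI1 line. The coloured genes were picked for this likeness.

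Other genes of sulfur metabolism were compared through 52 genes in 6 lists, of which 44 or 45 were expressed enough to be tested. In the RGI1 line given rapamycin 2 of 45 rose and none fell, both in the 12 tested genes of cysteine, glutathione and methionine synthesis. Over all genes 2.56% were called higher in this contrast, so the share of the pathway genes was near that background. SERAT2;1, a serine acetyltransferase that makes the cysteine precursor, averaged 58.0 ± 1.77 TPM with rapamycin, against 43.0 ± 4.47 TPM with mock (SD, n = 3 each), a log2 difference of 0.43 ± 0.067 (SE, limma adjusted p = 0.00367). GSH1, the first enzyme of glutathione synthesis, averaged 400.2 ± 19.9 TPM with rapamycin, against 332 ± 5.75 TPM with mock, a difference of 0.27 (adjusted p = 0.0145), and lost its call in 3 of 6 fits that left out 1 library (adjusted p = 0.0681 at most, without mock replicate 4 of the line). The 45 genes had a median difference of -0.005, against 0.029 over all genes. None of the 4 tested group 3 transporters was called.

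In the RGI1 line under mock, 6 of 45 rose and 4 fell relative to WT, beside 2% of all genes called higher and 14.5% called lower. After median-ratio scaling 13 rose and 1 fell, against 3.48% and 5.15% of all genes. Of the 7 genes of the sulfation branch, 3 rose and 2 fell. The adenosine 5′-phosphosulfate kinase APK4 averaged 5.59 ± 0.334 TPM in the line, against 10.2 ± 0.906 TPM in WT, and fell (-0.76, adjusted p = 0.000137). Its relatives APK2 (308 ± 19.1 TPM in the line, 232 ± 14.5 TPM in WT, adjusted p = 0.00545) and APK1 (224 ± 5.15 TPM in the line, 179 ± 10.4 TPM in WT, adjusted p = 0.00696) rose, by 0.41 and 0.32. LSU3, a paralog and neighbour of LSU1 on chromosome 3 with which it can share reads, averaged 3.35 ± 1.33 TPM in the line, against 0.986 ± 0.419 TPM in WT, and rose (1.11, adjusted p = 0.0125).

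APR1, a reductase like APR3, averaged 94.4 ± 8.68 TPM in the line, against 72.6 ± 4.79 TPM in WT (0.37, adjusted p = 0.0179), and kept its call in 4 of 6 fits that left out 1 library. The ATP sulfurylase APS2 averaged 34.5 ± 0.46 TPM in the line, against 38.4 ± 0.312 TPM in WT (-0.15, adjusted p = 0.0222), with the call kept in 2 of 6 such fits and lost after scaling (adjusted p = 0.518). Of the 6 tested deficiency genes beyond the members, LSU3 and GGCT2;1, a glutathione-degrading cyclotransferase (0.51, adjusted p = 0.0299), rose and SLIM1 (-0.22, adjusted p = 0.049) fell, and the calls of the last 2 genes were kept in 1 and 0 of 6 such fits. PAPST1, a carrier of activated sulfate (0.24, adjusted p = 0.0335), and TPST, the enzyme that sulfates RGF peptides (-0.22, adjusted p = 0.038), each kept theirs in 1 of 6. After scaling TPST lost its call (adjusted p = 0.206), as did SLIM1 (adjusted p = 0.277). The genes beyond the first 6 by p were named after their values were seen. SDI2 (0.32, adjusted p = 0.089) and LSU4 (-0.17, adjusted p = 0.597) were not called, nor was any of the 7 tested aliphatic glucosinolate genes. After scaling, limma called SDI2 (0.411, adjusted p = 0.0422) and MSA1 (0.274, adjusted p = 0.0119), another gene of the deficiency list, on the high side. LSU4 stayed uncalled after scaling (-0.102, adjusted p = 0.82). The median of the 45 genes was 0.043, against -0.095 over all genes.

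**Figure D5:**
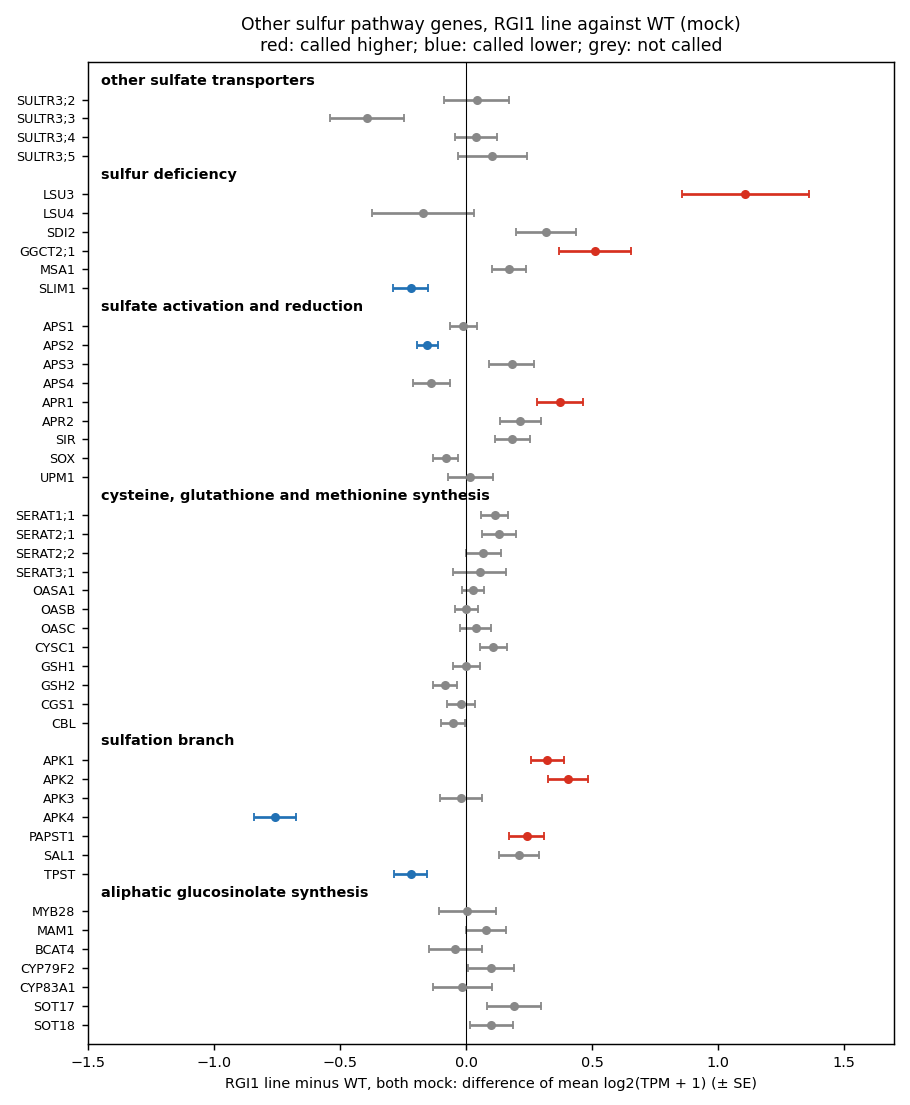
Difference of mean log2(TPM + 1), RGI1 line under mock minus WT under mock, with SE, for the 45 tested sulfur pathway genes outside the 10 members, grouped by list (n = 3 per group). Red marks calls on the high side and blue calls on the low side (limma, adjusted p under 0.05), with LSU3 the highest and APK4 the lowest.

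In the other 7 comparisons limma called none of the pathway genes. The numbers at an unadjusted p under 0.05 were 1 of 44 for RGF1 in WT, 6 of 45 for 1 µM and 5 of 45 for 100 nM rapamycin in WT, and 6 of 45 for rapamycin in the RGI5 line. They were 3 of 45 for the RGI5 line against WT under mock, and 6 and 1 of 45 for the difference between the responses of line and WT in the RGI1 and RGI5 sets. LSU3 was not called in the RGI5 line under mock (0.41, adjusted p = 0.478). In that difference between the responses in the RGI1 set, limma called 245 of 19634 genes (1.25%), and the median of the 10 members was -0.2, against 0.044 over all genes.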

How the data were processed

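RNA from 30 root libraries in 10 groups of 3 was made into libraries with a TruSeq stranded kit and sequenced, per the labels' protocols. The authors deposited 1 table of TPM per transcript model, a unit read from the values, since each column sums to 1000000. The authors named Salmon and DESeq2, per the submitters' processing notes. Version and role of each tool, transcript index, genome build, annotation and strand setting are not given in the sources at hand. Groups came from titles and characteristics, and the WT columns of the RGI1 set were matched to titles by elimination. All columns were used, and no pair of libraries held identical values.

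TPM of 40812 models were summed to 32753 genes with pandas 2.3.3, of which 32048 matched TAIR10.1 by locus. TPM keep no depth. Genes with at least 1 TPM in at least 3 libraries of a set were fitted as log2(TPM + 1) with limma 3.58.1 (R 4.3.3, variance trend), 1 fit per set, in 9 comparisons. Benjamini-Hochberg adjusted p under 0.05 over all genes tested was a call. On simulated data with 200 genes changed per comparison, those changed by 0.5 on the log2 scale were recovered in 60 of 72 cases for rapamycin in the RGI1 line, 35 of 65 for RGF1, 34 of 64 for the RGI5 line against WT and 23 of 70 for the difference of responses in the RGI5 set. Those changed by 1 were recovered in 64 of 65, 56 of 62, 56 of 61 and 51 of 63 cases, in the same order. False calls numbered 0 to 12 over the 9 comparisons. The changed genes were drawn from the more abundant ones, with independent noise. Recovery of low genes such as LSU3 was therefore not covered, nor was a shift of most genes at once. No call is given for the 10 genes.

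The 10 genes and the pathway and marker lists were chosen with earlier results of these data known. The 10 genes are named throughout, with up to 6 called pathway genes per comparison by smallest p, and the 4 nearest profiles of the 3 genes with the largest SD over groups. Alternatives were median-ratio scaling, no filter, a pseudocount of 0.1, the replicate number as a block, 1 fit of all 30 libraries, and leaving out each library.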

Additional observations from a re-analysis of the deposited data

Results flagged for a closer look

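The difference of SULTR2;2 between rapamycin and mock had opposite signs in the genotypes of the RGI1 set, and was small in WT. Every rapamycin library of the RGI1 line was below every mock library of the line, and every rapamycin library of WT was above every mock library of WT. In WT the margin was narrow, from 9.81 TPM (highest mock) to 9.88 TPM (lowest rapamycin), and 4.52% of all genes also lay wholly above mock there. The difference on the log2(TPM + 1) scale was -0.56 ± 0.075 (SE) in the line and 0.092 ± 0.075 in WT. The response of the RGI1 line minus that of WT was -0.65. The gene was chosen with values of these libraries known, and the difference between the responses was not tested.

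SULTR2;1 under mock differed from WT in opposite directions in the lines. The difference, line minus WT, was 0.52 in the RGI1 line and -0.38 in the RGI5 line, with every library of the RGI1 line above and every library of the RGI5 line below its WT. The levels of the lines themselves overlapped under mock, at 17.4 to 20.5 TPM (RGI1 line) and 15.5 to 18.5 TPM (RGI5 line). WT under mock lay at 11.5 to 14.7 TPM in the RGI1 set and 20.1 to 25.1 TPM in the RGI5 set. The difference between the lines was not tested.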

How the results depend on the processing

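For the 10 genes, 439 of 450 differences under the other settings stayed within 1 SD of the value in the report. No difference larger than 1 SD in the report changed sign. SULTR4;1 in the RGI1 line against WT under mock, smaller than 1 SD there, went from -0.030 to 0.071 after median-ratio scaling. All 660 differences with 1 library left out, over the 9 comparisons, stayed within 1 SD. That SD was taken within the groups compared. With 3 libraries per group, leaving out 1 cannot move the difference between a pair of groups by 1 SD. For those comparisons the outcome was fixed in advance and says nothing about stability. Genes called moved by more than 1.5 times as follows. Median-ratio scaling gave 1693 in the RGI1 line against WT (3239 in the report) and 1 for 1 µM rapamycin in WT (0). Without the filter there were 6 for RGF1 (27), 150 for the difference of responses in the RGI1 set (245) and 6 for the RGI5 line against WT (86). The pseudocount of 0.1 gave 0 for 100 nM rapamycin in WT (1).

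A single fit of 30 libraries gave 167 for RGF1, 1 for 1 µM and 0 for 100 nM rapamycin in WT, 362 (796 in the report) and 75 (0) for rapamycin in the RGI1 and RGI5 lines, 28 and 127 (0) for the differences of responses in the RGI1 and RGI5 sets, and 628 genes and 1 pathway gene for the RGI5 line against WT.

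Replicate numbers did not pair the libraries: the median correlation of same-numbered deviations was 0.0075, 0.033 and 0.027 in the RGF1, RGI1 and RGI5 sets. With the number as a block, 6 genes were called for RGF1, 431 for rapamycin in the RGI1 line, 55 for the difference of responses in that set, 15 for the RGI5 line against WT, and 6 pathway genes (10) for the RGI1 line against WT. The 4 that lost their call were APR1 (adjusted p = 0.0627), APS2, SLIM1 and TPST.

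With 1 library left out, calls ranged over 0 to 23 for RGF1, 0 to 1 for 1 µM rapamycin in WT, 402 to 695 in the RGI1 line, 1559 to 2826 for that line against WT, 116 to 258 for the difference of responses, 0 to 3 for 100 nM rapamycin in WT, 0 to 0 in the RGI5 line, 7 to 181 for that line against WT and 0 to 48 for its difference of responses. Pathway calls ranged over 1 to 2 for rapamycin in the RGI1 line and 4 to 8 for that line against WT. The causes were not tested. TPM keep no depth, so precision rests on 3 libraries per group.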
